A study of Mus musculus with 8 samples.

Results

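The genes described here are 10 members of the BCL2 family, named in a list: the pro-survival genes Bcl2, Bcl2l1 and Mcl1, and the pro-death genes Bax, Bak1, Bcl2l11, Bid, Bbc3, Pmaip1 and Bnip3l. They were measured in RAW 264.7, a mouse macrophage line, on 8 Affymetrix arrays with 2 arrays for each of 4 groups. The groups were menthol followed by LPS (LPS+M), LPS alone (LPS), menthol alone (M) and control. Menthol was given for 1 h, at a dose that the sample labels do not state, and LPS, the bacterial lipopolysaccharide that activates Toll-like receptor 4, was given at 100 ng/ml for 6 h. All groups share the 1 cell line and its medium, and no harvest time is given for M and control, so a difference in time cannot be told apart from LPS. By their labels the arrays of a pair are biological replicates, with no mention of separate cultures, so p-values measure only the spread between these arrays.

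Among the probe sets annotated to a gene alone, the one whose signal averaged highest across the 8 arrays was taken, and this is called its main probe set. Of the 10 genes, 8 had such a probe set, with 27 probe sets in all. Bnip3l, which encodes a mitophagy receptor of the outer mitochondrial membrane, lay only on 3 probe sets that also carry the symbol of its pseudogene and was left out. Bax was not analysed here, since no probe set was annotated to it in the table used. All 8 measured genes lay above 4.84, the mean log2 signal of all probe sets and the floor for testing, and they are 8 of the 8908 genes tested out of 18193 on the array. Values below are log2 GC-RMA signals as deposited, differences are log2 fold changes with their standard error from limma, and a gene is called changed at an adjusted p under 0.05 over all 8908 genes together with a change of at least 1.5-fold. With 2 arrays against 2, an exact two-sided permutation test cannot give a p below 0.333, so none was run on single genes. RNA came from whole cultures, in which fewer expressing cells and less RNA per cell cannot be told apart. Signals of different probe sets were not set against each other as amounts.

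The array medians lay between 2.99 and 3.04 and the correlation of the 2 arrays was 0.999 in each group, taken over probe sets, which are not independent of each other. All 10 macrophage markers checked, among them Cd14, Lyz2, Adgre1 and Csf1r, lay above the floor, with a mean signal between 13.1 and 13.3 over the arrays. No marker of T cells, B cells, fibroblasts, epithelial cells or dendritic cells lay above it, and of 3 neutrophil markers only S100a8 did.

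Proteins of the BCL2 family decide whether the outer mitochondrial membrane is breached during apoptosis. BCL2, BCL-XL (encoded by Bcl2l1) and MCL1 keep it intact by binding their pro-death relatives, whereas BAX and BAK form the pores through which cytochrome c escapes. The BH3-only proteins act upstream as sensors: BIM (Bcl2l11) responds to loss of growth factor signals and to endoplasmic reticulum stress, PUMA (Bbc3) and NOXA (Pmaip1) to p53 and to stress, and BID is activated when caspase-8 cleaves it. In macrophages this balance is of interest because LPS is known to induce survival genes through NF-κB while it also engages death receptors.

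The promoters of 3 members are shown. For Bcl2l11 and Bbc3, both BH3-only genes, the windows were chosen because they hold a match to the FOXO motif. Both genes had higher means in M and in LPS+M than in control, as did Pmaip1 and Mcl1. Bcl2 is shown beside them, with its lowest mean in LPS+M. The windows run from 250 bases before to 50 bases after a transcription start and come from RefSeq on GRCm38.p6. The search covered 13 windows for 8 of the 10 genes, with none for Pmaip1 or Bnip3l. Pmaip1 was left out of the search, so its absence says nothing of what RefSeq holds for it. They are written 5′ to 3′ on the strand of the gene, with matches to the FOXO motif (TGTTTAC) and to the GC box (GGGCGG), on either strand, in capitals.
Bcl2l11, chr2:128125788-128126087, plus strand: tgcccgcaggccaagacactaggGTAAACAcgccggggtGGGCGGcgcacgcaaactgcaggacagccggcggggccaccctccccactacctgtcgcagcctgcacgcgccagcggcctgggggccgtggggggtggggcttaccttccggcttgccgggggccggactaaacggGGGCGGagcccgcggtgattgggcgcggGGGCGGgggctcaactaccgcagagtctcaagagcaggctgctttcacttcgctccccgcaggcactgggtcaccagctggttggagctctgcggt
Bbc3, chr7:16310011-16310310, plus strand: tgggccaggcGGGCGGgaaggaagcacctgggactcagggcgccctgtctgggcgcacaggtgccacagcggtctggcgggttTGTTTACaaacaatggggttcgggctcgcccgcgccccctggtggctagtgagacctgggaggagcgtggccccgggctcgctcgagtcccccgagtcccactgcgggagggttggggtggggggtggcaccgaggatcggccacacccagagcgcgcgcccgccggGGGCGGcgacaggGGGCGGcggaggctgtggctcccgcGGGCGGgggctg
Bcl2, chr1:106714241-106714540, minus strand: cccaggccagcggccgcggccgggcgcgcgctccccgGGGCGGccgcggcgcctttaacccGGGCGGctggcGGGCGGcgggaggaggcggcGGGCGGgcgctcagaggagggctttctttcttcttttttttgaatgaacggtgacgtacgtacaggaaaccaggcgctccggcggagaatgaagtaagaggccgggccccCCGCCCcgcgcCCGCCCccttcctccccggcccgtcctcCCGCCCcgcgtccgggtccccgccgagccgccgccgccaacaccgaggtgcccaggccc

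This Bcl2l11 window, 1 of 2 for the gene, held 1 FOXO match, written GTAAACA on the strand of the gene, whose first base lies at position -227 from the start, and 3 GC boxes. This Bbc3 window, 1 of 3 for the gene, held 1 FOXO match at -167 and 4 GC boxes. Both were chosen for the match, and the other window of Bcl2l11 and the other 2 of Bbc3 held none, while the Bcl2 window held 7 GC boxes and no FOXO match. Of all 32851 promoter windows in the table, 3.65% held a FOXO match and 35.7% a GC box. None of the 13 windows held the composite ATF4-CEBP motif TGATGNAA, which 3.97% of all windows held, the CRE motif TGACGTCA (1.79% of all) or the AP-1 motif TGANTCA (7.81% of all). Pmaip1 was not searched, so this does not cover it. The kappaB motif (8.46% of all windows), the p53 half-site (8.36%) and the E-box CACGTG (7.15%) matched nowhere in the 3 windows shown. In other windows, kappaB had 2 overlapping matches, at -137 and -136, in 1 of Bbc3 and 1 match in 1 of Bcl2l1. The E-box matched in another Bbc3 window and in Bax, where the p53 half-site also matched. A match of letters is a description of these windows and says nothing of binding. GC content was 71.0% for Bcl2l11, 74.7% for Bbc3 and 76.0% for Bcl2, against a median of 52.7% over all windows.

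Among the BH3-only genes, Pmaip1, which encodes the MCL1-binding protein NOXA, was the 1 member called in M versus control and the 1 called in LPS+M versus LPS. Its signals were 9.03 and 9.32 in LPS+M, 8.40 and 8.37 in LPS, 9.56 and 9.45 in M, and 8.75 and 8.92 in control. No 2 groups overlapped, M was highest and LPS lowest. In M versus control Pmaip1 rose by 0.67 ± 0.10 (1.59-fold, adjusted p = 0.00455), and it rose by 0.78 ± 0.10 in LPS+M versus LPS (1.72-fold, adjusted p = 0.00165). Pmaip1 was thus higher with menthol both without and with LPS, and the difference between these 2 changes was 0.12 ± 0.15 (interaction, adjusted p = 0.867). LPS versus control gave -0.45 ± 0.10 (adjusted p = 0.0189), and LPS+M versus M gave -0.33 ± 0.10 (adjusted p = 0.0741), neither called. In LPS versus M, Pmaip1 fell by 1.12 ± 0.10 (2.17-fold, adjusted p = 0.000174). LPS+M lay between M and control, with 0.33 ± 0.10 versus control (adjusted p = 0.0407), under the 1.5-fold minimum. The call in LPS+M versus LPS was lost with the methods' t-test at an unadjusted p, and after Benjamini-Hochberg that test called Pmaip1 in no comparison. The call in M versus control was lost without the first control array, where the change was 0.58, just under 1.5-fold. Pmaip1 has a single probe set on the array, so no other probe set bears on it.

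**Figure D1:**
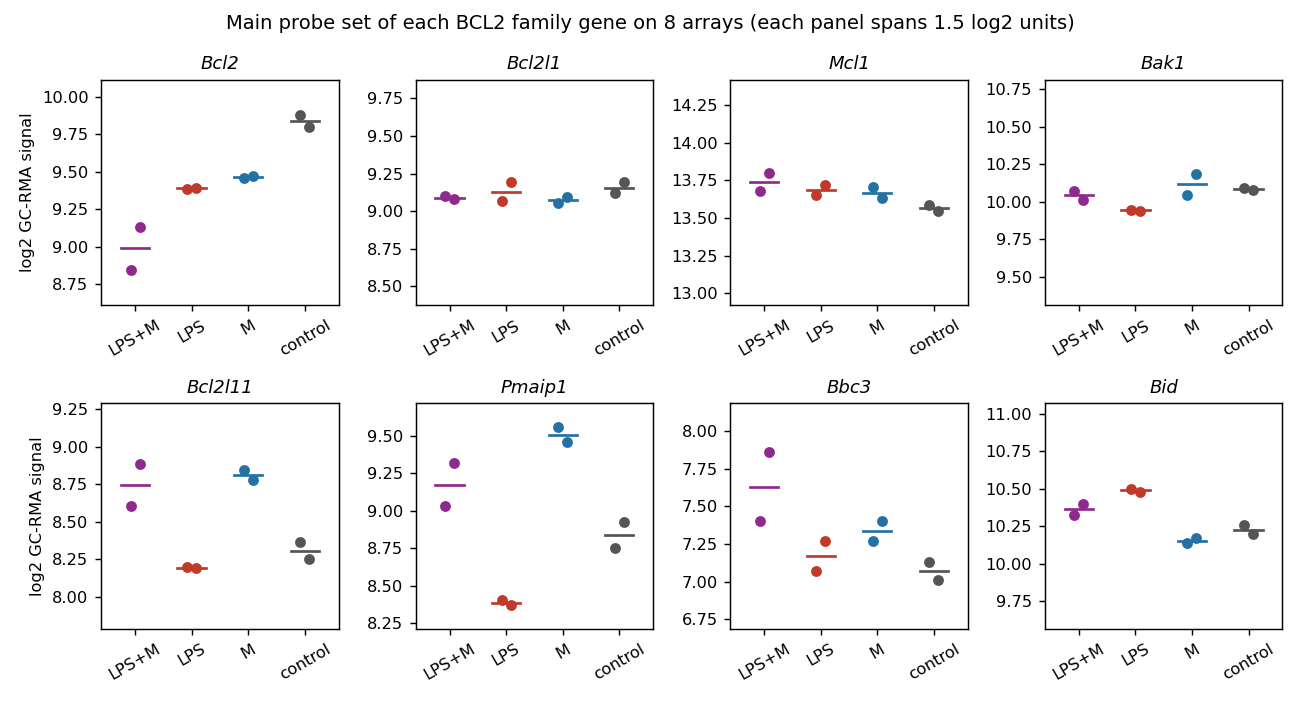
Log2 GC-RMA signal (y axis) of the main probe set of each of the 8 measured BCL2 family genes in LPS+M, LPS, M and control (x axis). Points are the 2 arrays of a group and bars their mean, and every panel spans 1.5 log2 units; Pmaip1 is highest in M and lowest in LPS, and Bcl2 is lowest in LPS+M at 8.85 and 9.13.

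These counts are to be read against all genes. In M versus control 1 of 8 members was called, and 4.55% of all genes tested were. The counts were 1 of 8 for LPS+M versus LPS (6.71% of all genes), none for LPS versus control (6.13%), none for LPS+M versus M (4.16%), 1 of 8 for LPS+M versus control (9.83%) and 2 of 8 for LPS versus M (11.3%). None was called for the interaction (0.236%). Over all genes, calls of higher signal made up 3.01% in M versus control, 4.22% in LPS+M versus LPS, 3.17% in LPS versus control, 2.39% in LPS+M versus M, 5.53% in LPS+M versus control, 4.59% in LPS versus M and 0.0337% for the interaction, and calls of lower signal 1.54%, 2.49%, 2.96%, 1.77%, 4.3%, 6.7% and 0.202% in the same order. Where the count is 0, the number of members at an unadjusted p under 0.05 by limma was 3 in LPS versus control, 3 in LPS+M versus M and 0 in the interaction, and the methods' t-test at an unadjusted p under 0.05 and 1.5-fold called none in these 3. With no fold minimum, an adjusted p under 0.05 was reached by 3 of 8 members in M versus control (21.7% of all genes), 4 of 8 in LPS+M versus LPS (28.7%), 3 of 8 in LPS versus control (21.7%), 1 of 8 in LPS+M versus M (14.2%), 4 of 8 in LPS+M versus control (34.6%), 3 of 8 in LPS versus M (38.7%) and none for the interaction (0.247%). With so few members, a single gene moves these shares by 12.5 percentage points. Groups of 2 arrays that do not overlap were common over all genes, at 68.5% in M versus control, 63% in LPS+M versus LPS, 65.2% in LPS versus control, 55.2% in LPS+M versus M, 67.5% in LPS+M versus control and 75.8% in LPS versus M.

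The result for Bcl2l11, which encodes BIM, depended on the probe set. Its main probe set, 1435448_at, gave 8.61 and 8.88 in LPS+M, 8.20 and 8.19 in LPS, 8.84 and 8.78 in M, and 8.36 and 8.25 in control. Both menthol groups lay above both groups without menthol, and LPS+M and M overlapped. The change was 0.51 ± 0.10 in M versus control (1.42-fold, adjusted p = 0.00891) and 0.55 ± 0.10 in LPS+M versus LPS (1.46-fold, adjusted p = 0.00486), both under the 1.5-fold minimum and not called. In LPS versus M, Bcl2l11 fell by 0.62 ± 0.10 (adjusted p = 0.00175), a call that was lost after quantile normalization (-0.57) and with the methods' t-test after Benjamini-Hochberg.

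The other 4 Bcl2l11 probe sets showed larger differences with menthol. When every probe set above the floor was tested by itself, 4 of the 5 were called higher in M versus control, at 0.94 to 1.20, and 4 of 5 in LPS+M versus LPS, at 0.99 to 1.49. Over all probe sets tested in this way, 5.07% were called in M versus control and 7.64% in LPS+M versus LPS. In LPS+M versus control 4 of 5 were called higher (10.8% of all probe sets in either direction), in LPS versus M 4 of 5 lower (11.8%), and in LPS versus control (5.7%) and LPS+M versus M (3.89%) 1 of 5 higher. All 5 lay above 0 in both comparisons of menthol, and probe sets of 1 gene are not independent measurements of it. Probe set 1426334_a_at read 8.69 and 8.68 in LPS+M, 7.10 and 7.28 in LPS, 7.66 and 7.70 in M, and 6.58 and 6.38 in control. Here all 4 groups were apart, in the order LPS+M, M, LPS and control. It rose by 1.20 ± 0.09 in M versus control (adjusted p = 8e-04), by 0.71 ± 0.09 in LPS versus control (adjusted p = 0.00287), by 1.01 ± 0.09 in LPS+M versus M (adjusted p = 0.000982) and by 2.21 ± 0.09 in LPS+M versus control (adjusted p = 2.34e-05). It was the 1 Bcl2l11 probe set called in LPS versus control, where the others lay between -0.11 and 0.19. For 1435449_at the signals were 6.31 and 6.46 in LPS+M, 4.86 and 4.96 in LPS, 5.94 and 5.73 in M, and 4.87 and 4.56 in control, so that only LPS and control overlapped. This probe set passed the floor of 4.84 only through the groups with menthol. Its mean was 4.72 in control and 4.91 in LPS, and over these 2 groups together it lay below the floor. Without this probe set the counts above are 3 of 4 in place of 4 of 5. Its change was 1.12 ± 0.12 in M versus control, 1.48 ± 0.12 in LPS+M versus LPS and 0.55 ± 0.12 in LPS+M versus M, the last with adjusted p = 0.0363 and not called. With the mean of all 5 probe sets, Bcl2l11 was called in M versus control (0.96), in LPS+M versus LPS (1.17) and in LPS+M versus control (1.30). No Bcl2l11 probe set was called for the interaction (0.0138% of all probe sets), where the values lay between 0.04 and 0.36. Which transcripts of the gene each probe set reads is not given in the sources used here.

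**Figure D2:**
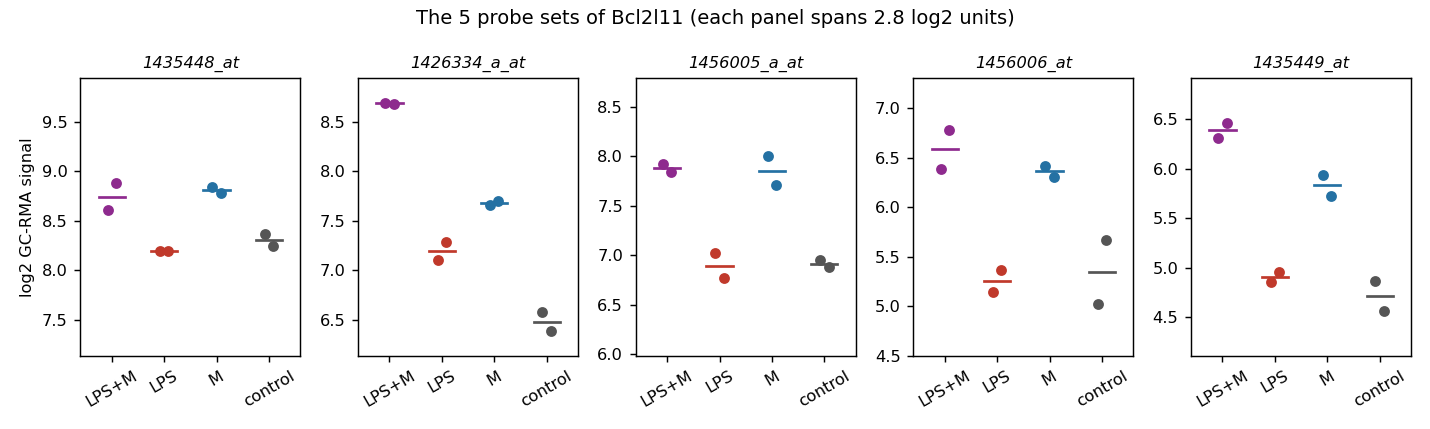
Log2 GC-RMA signal (y axis) of each of the 5 Bcl2l11 probe sets in LPS+M, LPS, M and control (x axis), with the 2 arrays of a group as points and their mean as a bar. In all 5 panels both menthol groups lie above both groups without menthol; 1426334_a_at also separates LPS (7.10 and 7.28) from control (6.58 and 6.38).

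Bbc3, which encodes PUMA, was highest in LPS+M at 7.40 and 7.86, against 7.07 and 7.27 in LPS, 7.27 and 7.40 in M, and 7.13 and 7.01 in control. The 2 LPS+M arrays stood farther apart than those of any other group of this gene, and the lower of them overlapped with M. Bbc3 was not called: the change was 0.46 ± 0.15 in LPS+M versus LPS (adjusted p = 0.0496) and 0.56 ± 0.15 in LPS+M versus control (adjusted p = 0.02), both under 1.5-fold. Without the first LPS+M array both were called, at 0.69 and 0.79. In M versus control it gave 0.27 ± 0.15 (adjusted p = 0.24) and in LPS versus control 0.10 ± 0.15 (adjusted p = 0.673).

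Bid, the BH3-only gene that links death receptors to mitochondria, was the 1 BH3-only member with its highest signal in LPS. It read 10.32 and 10.40 in LPS+M, 10.50 and 10.48 in LPS, 10.14 and 10.17 in M, and 10.26 and 10.19 in control, with no overlap between groups. The differences were small: 0.26 ± 0.06 in LPS versus control (1.20-fold, adjusted p = 0.0203), 0.34 ± 0.06 in LPS versus M (adjusted p = 0.00398), -0.07 ± 0.06 in M versus control (adjusted p = 0.442) and -0.13 ± 0.06 in LPS+M versus LPS (adjusted p = 0.159). None was called, and the other 2 Bid probe sets, both above the floor, were called in no comparison either.

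Of the pore-forming genes, Bak1 was measured, and its group means spanned 0.17. It read 10.07 and 10.01 in LPS+M, 9.94 and 9.94 in LPS, 10.05 and 10.19 in M, and 10.09 and 10.08 in control. LPS was the lowest group, at -0.14 ± 0.07 versus control (adjusted p = 0.183) and -0.17 ± 0.07 versus M (adjusted p = 0.0781). The 95% interval for M versus control ran from -0.12 to 0.19, and that for LPS+M versus control from -0.20 to 0.12.

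On the pro-survival side, Bcl2 was the 1 member called in LPS+M versus control. It read 8.85 and 9.13 in LPS+M, 9.39 and 9.39 in LPS, 9.46 and 9.47 in M, and 9.88 and 9.80 in control. The groups did not overlap, with LPS+M lowest and control highest, and M and LPS next to each other. In LPS+M versus control Bcl2 fell by 0.85 ± 0.09 (1.80-fold, adjusted p = 0.000403). Each agent by itself gave a smaller difference that was not called: -0.37 ± 0.09 in M (adjusted p = 0.027) and -0.45 ± 0.09 in LPS (adjusted p = 0.0121), each versus control. LPS versus M gave -0.08 ± 0.09 (adjusted p = 0.54), a gap wider than that between the 2 arrays of either group but within the error of the model, which pools the spread of all 4 groups. The second agent gave similar values, -0.40 ± 0.09 in LPS+M versus LPS (adjusted p = 0.0161) and -0.48 ± 0.09 in LPS+M versus M (adjusted p = 0.0134), and the interaction was -0.03 ± 0.13 (adjusted p = 0.977, 95% interval -0.33 to 0.28). The call in LPS+M versus control was lost with the methods' t-test, at an unadjusted p as well as after Benjamini-Hochberg. Without the second LPS+M array, Bcl2 was also called in LPS+M versus M, at -0.62.

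A second Bcl2 probe set, 1437122_at, had the same order of groups and fell by 0.72 ± 0.09 in LPS+M versus control when tested by itself (adjusted p = 0.0018). It read 6.39 and 6.41 in LPS+M, 6.71 and 6.78 in LPS, 6.86 and 6.79 in M, and 7.25 and 6.99 in control. Another above the floor, 1440770_at, had -0.09 in this comparison. The remaining 2 lay below the floor, and for the mean over its 5 probe sets the change was -0.39 and was not called.

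Mcl1, which encodes a short-lived protein that NOXA and BIM bind, differed little at its main probe set. The signals were 13.68 and 13.80 in LPS+M, 13.65 and 13.72 in LPS, 13.70 and 13.64 in M, and 13.59 and 13.54 in control, so that control was lowest and the 3 treated groups overlapped. In LPS+M versus control the change was 0.17 ± 0.07 (adjusted p = 0.0898, 95% interval 0.01 to 0.33), in LPS 0.12 ± 0.07 (adjusted p = 0.259) and in M 0.10 ± 0.07 (adjusted p = 0.325). All 6 Mcl1 probe sets lay above the floor and had positive changes in M, LPS and LPS+M, each versus control, and none was called in any comparison. The probe set that differed most was 1416881_at, at 11.92 and 11.71 in LPS+M, 11.45 and 11.37 in LPS, 11.62 and 11.57 in M, and 11.22 and 11.31 in control. No 2 of its groups overlapped, and the order was LPS+M, M, LPS and control. It gave 0.54 ± 0.09 in LPS+M versus control (adjusted p = 0.00393) and 0.40 ± 0.09 in LPS+M versus LPS (adjusted p = 0.0165), under 1.5-fold. In LPS+M versus LPS the 6 probe sets ran from -0.15 to 0.40, with 2 of them above 0.

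Bcl2l1, which encodes BCL-XL, had the smallest range of group means of all 8 genes, 0.08. It read 9.10 and 9.08 in LPS+M, 9.07 and 9.19 in LPS, 9.06 and 9.09 in M, and 9.12 and 9.19 in control. LPS overlapped with each of the other groups. The 95% interval was -0.24 to 0.07 for M versus control, -0.18 to 0.13 for LPS versus control and -0.19 to 0.12 for LPS+M versus LPS, which leaves out a 1.5-fold change in either direction. The other 3 Bcl2l1 probe sets lay below the floor.

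**Figure D3:**
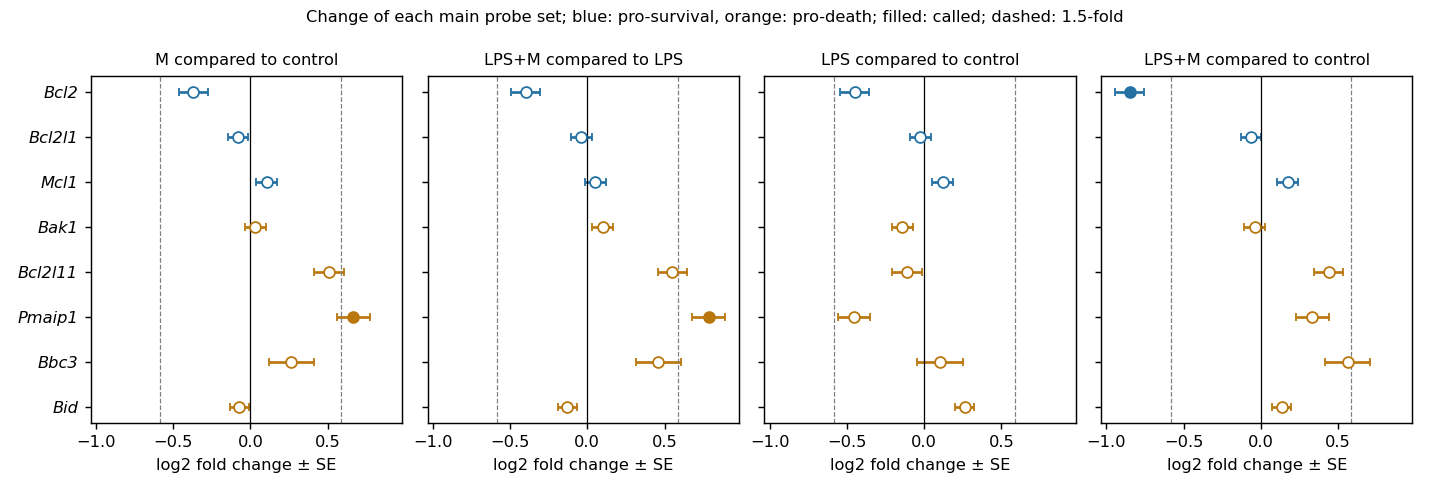
Log2 fold change with its standard error (x axis) of the 8 main probe sets (y axis) in M versus control, LPS+M versus LPS, LPS versus control and LPS+M versus control. Filled symbols were called and dashed lines mark 1.5-fold; Pmaip1 is filled in both comparisons of menthol, at 0.67 and 0.78, and Bcl2 in LPS+M versus control, at -0.85.

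Set side by side, 1 of 5 pro-death genes, Pmaip1, was called higher with menthol, and none of the 3 pro-survival genes was called in either comparison of menthol. The median change of the 5 pro-death genes was 0.27 in M versus control (range -0.07 to 0.67) and 0.46 in LPS+M versus LPS (range -0.13 to 0.78), with 4 above 0 in each. The 3 pro-survival genes had medians of -0.08 (range -0.37 to 0.10) and -0.04 (range -0.40 to 0.05). Over all genes tested the medians were 0.02 and 0.03. In LPS versus control the medians were -0.11 for the pro-death and -0.03 for the pro-survival genes, against -0.03 over all genes, with none called in either class. In LPS+M versus control they were 0.33 and -0.06, against 0.00 over all genes, with 1 pro-survival gene, Bcl2, called lower. Comparisons that share arrays, such as M and LPS+M against control, are not independent of each other.

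Across the 8 arrays, the genes whose signals followed the members most closely were found by Pearson correlation among the genes tested, as a description. For Pmaip1 they were Pithd1 (0.99), Tut4 (0.99) and Arrdc3 (0.99), for Bcl2 Pclaf (0.99), Haus3 (0.99) and BC005537 (0.98), and for Bcl2l11 Edil3 (0.99), Cgrrf1 (0.99) and Zmym2 (0.99). The 8 arrays are 4 groups of 2, so these points are not independent.

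Of 16 other BCL2 family genes listed, 6 lay above the floor, and 2 of them, both BH3-only genes, were called in at least 1 comparison. Of the 6, 1 was called in M versus control (4.55% of all genes) and 1 in LPS versus control (6.13%). In LPS+M versus LPS 1 rose and 1 fell (6.71% in either direction). The count was 1 in LPS+M versus M (4.16%), in LPS+M versus control (9.83%) and in LPS versus M (11.3%). Bmf, which encodes a protein held at the cytoskeleton until stress frees it, was highest in LPS+M: it read 6.10 and 6.30 in LPS+M, 5.65 and 5.50 in LPS, 5.99 and 5.66 in M, and 5.00 and 5.20 in control. It rose by 0.73 ± 0.13 in M versus control (adjusted p = 0.00707), by 0.63 ± 0.13 in LPS+M versus LPS (adjusted p = 0.00988) and by 1.10 ± 0.13 in LPS+M versus control. Bik, which encodes a BH3-only protein of the endoplasmic reticulum, was highest in LPS: it read 7.46 and 7.62 in LPS+M, 8.12 and 8.26 in LPS, 6.58 and 6.85 in M, and 7.39 and 7.07 in control. It rose by 0.96 ± 0.13 in LPS versus control (adjusted p = 0.00197) and fell by 0.65 ± 0.13 in LPS+M versus LPS (adjusted p = 0.00951). Bcl2l2, Bad, Bnip3 and Bcl2l13 were called in no comparison. The median of the 6 genes was 0.19 in M versus control, 0.21 in LPS+M versus LPS and 0.02 in LPS versus control, against 0.02, 0.03 and -0.03 over all genes. Of the genes for A1, a survival protein induced by NF-κB, Bcl2a1a, Bcl2a1b and Bcl2a1d lay only on probe sets that carry several of these near-identical genes, and they were not analysed here.

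Of 12 tested genes of transcription factors that induce BH3-only genes and of their targets, 6 rose and 1 fell in LPS+M versus LPS, with a median of 0.48 (6.71% of all genes were called, and their median was 0.03), and 3 rose and none fell in M versus control, with a median of 0.44 (4.55% and 0.02 over all genes). This list, like the others, was chosen with earlier results of these data known, so these shares are a description and no test. The 3 that rose in M versus control were Ddit3, Trib3 and Chac1. Ddit3, which encodes CHOP, a stress transcription factor that induces Bcl2l11 and represses Bcl2, read 9.14 and 9.06 in LPS+M, 8.02 and 8.01 in LPS, 8.84 and 8.87 in M, and 7.70 and 8.01 in control. It rose by 0.99 ± 0.10 in M versus control (adjusted p = 0.000731) and by 1.09 ± 0.10 in LPS+M versus LPS (adjusted p = 0.000339). Trib3 and Chac1, which are not transcription factors but targets of ATF4 and CHOP, rose by 1.91 ± 0.10 and 1.09 ± 0.11 in M versus control and by 2.58 ± 0.10 and 1.92 ± 0.11 in LPS+M versus LPS. Egr1, an immediate early transcription factor, rose by 1.26 ± 0.11 in LPS+M versus LPS, and the 1 that fell there was Myc, a growth-promoting transcription factor, by 0.80 ± 0.07. Atf4 rose by 0.68 ± 0.09 in LPS+M versus LPS (adjusted p = 0.00143). In M versus control Atf4 gave 0.48 ± 0.09 (adjusted p = 0.00825), under the 1.5-fold minimum and not called. Chosen after their values were seen, the FOXO genes Foxo1 and Foxo3, whose products are known to induce Bcl2l11 and Bbc3, gave 0.41 ± 0.12 (adjusted p = 0.0508) and 0.50 ± 0.06 (adjusted p = 0.00222) in M versus control, neither called. In LPS+M versus LPS Foxo1 rose by 0.59 ± 0.12 (adjusted p = 0.0106), and Foxo3 gave 0.37 ± 0.06 (adjusted p = 0.00479) and was not called. In LPS versus M they fell by 0.74 ± 0.12 and by 0.75 ± 0.06. Foxo3 read 8.67 and 8.63 in LPS+M, 8.27 and 8.28 in LPS, 9.03 and 9.02 in M, and 8.46 and 8.58 in control, so that M was highest and LPS lowest. In LPS versus control, 1 of the 12 rose, Myc at 1.07 ± 0.07, and 4 fell, Egr1, Trib3, E2f1 and Chac1, at -0.77 to -0.60. Over all genes 3.17% rose and 2.96% fell there. Whether any of these genes drives a BCL2 family gene was not tested.

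**Figure D4:**
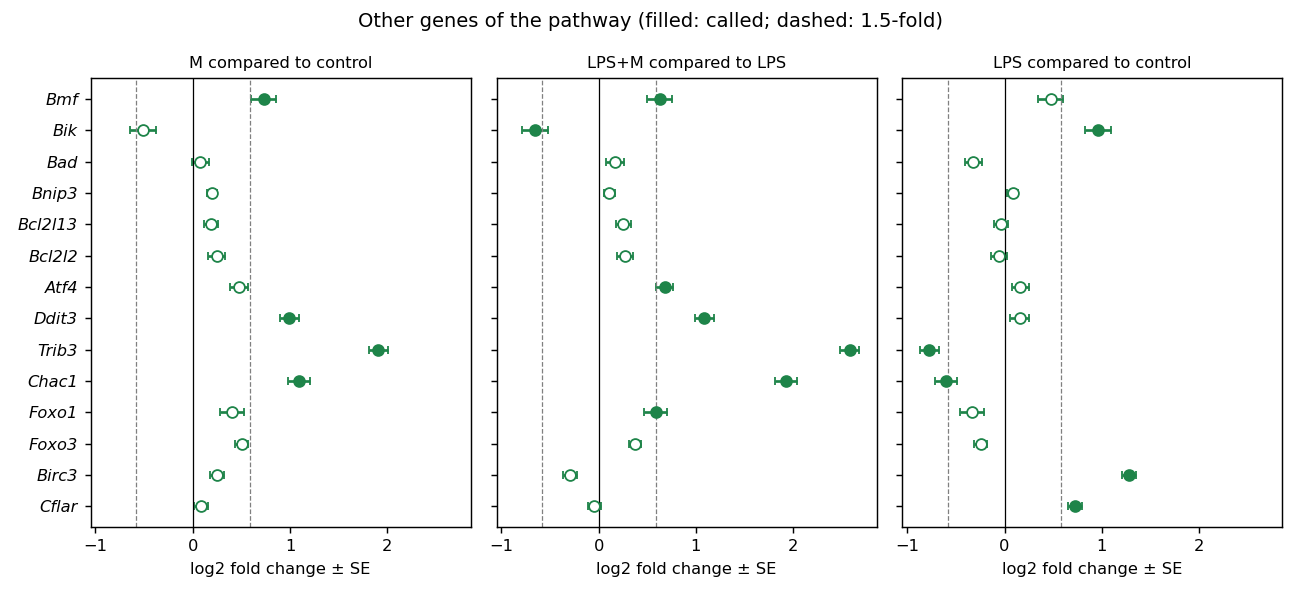
Log2 fold change with its standard error (x axis) of the 6 other BCL2 family genes tested and of 8 genes of the other lists, chosen after their values were seen (y axis), in M versus control, LPS+M versus LPS and LPS versus control. Filled symbols were called and dashed lines mark 1.5-fold; Trib3 lies at 1.91 and 2.58 in the comparisons of menthol, and Bik lies at 0.96 in LPS versus control and at -0.65 in LPS+M versus LPS.

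Of 11 tested genes of the apoptosome, caspases and released mitochondrial proteins, none was called in M versus control, in LPS versus control, in LPS+M versus LPS or in LPS+M versus control, where the medians were -0.04, -0.01, -0.09 and -0.09. Over all genes 4.55%, 6.13%, 6.71% and 9.83% were called in these comparisons, so that a list of this size would hold few calls at the share of all genes. In LPS versus M, Htra2, which encodes a mitochondrial protease that counters inhibitors of apoptosis, rose by 0.67 ± 0.06, and Apaf1, the scaffold of the apoptosome, fell by 0.59 ± 0.09. Htra2 gave -0.45 ± 0.06 in M versus control (adjusted p = 0.0024) and -0.58 ± 0.06 in LPS+M versus LPS (adjusted p = 0.00058). The latter lay just under the 1.5-fold minimum. Apaf1 went the other way in the same comparisons, at 0.20 ± 0.09 (adjusted p = 0.158) and 0.33 ± 0.09 (adjusted p = 0.0278). Of 12 genes for channel partners of BAX and BAK, 1 was called in any of the 7 comparisons: Opa1, which encodes a fusion protein of the inner mitochondrial membrane, fell by 0.67 ± 0.15 in LPS+M versus control (adjusted p = 0.0119), where 9.83% of all genes were called. Among 8 tested genes for turnover and phosphorylation of MCL1 and BIM, 1 was called in any of the 7 comparisons: in LPS versus M, where 11.3% of all genes were called, Btrc, which encodes a ubiquitin ligase subunit, fell by 0.89 ± 0.23. Its LPS arrays read 5.38 and 4.57, the second below the floor. The median of these 8 genes was 0.24 in M versus control and 0.27 in LPS+M versus LPS, against 0.02 and 0.03 over all genes.

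Of 7 tested genes for inhibitor of apoptosis proteins, 1 rose in LPS versus control, Birc3, which encodes cIAP2, at 1.28 ± 0.07 (adjusted p = 2.71e-05), and 3.17% of all genes rose there. Birc3 read 11.11 and 11.21 in LPS+M, 11.48 and 11.43 in LPS, 10.36 and 10.50 in M, and 10.22 and 10.14 in control, and it was not called in LPS+M versus LPS. Naip2, which encodes a sensor of bacterial secretion systems as well as a protein with inhibitor of apoptosis repeats, rose by 0.62 ± 0.11 in M versus control and by 0.59 ± 0.11 in LPS+M versus LPS, as the 1 of these 7 called in each, where 3.01% and 4.22% of all genes rose. Of 6 tested genes of the pathway that cleaves BID, 2 rose in LPS versus control: the death receptor gene Fas, at 3.04 ± 0.18, and Cflar, which encodes the caspase-8 inhibitor c-FLIP, at 0.73 ± 0.07, against 3.17% of all genes that rose. None of these 6 was called in M versus control (4.55% of all genes) or in LPS+M versus LPS (6.71%). Among 11 tested mitophagy genes, 2 rose in M versus control (3.01% of all genes), 1 in LPS versus control (3.17%) and 1 in LPS+M versus LPS (4.22%). Sqstm1, which encodes the autophagy adaptor p62, rose by 0.81 ± 0.06 in M versus control, by 0.91 ± 0.06 in LPS versus control and by 0.59 ± 0.06 in LPS+M versus LPS, and Gabarapl1 rose by 0.60 ± 0.08 in M versus control.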

How the data were processed

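RNA of 8 samples of RAW 264.7 cells was measured on Affymetrix arrays, 1 array each. The authors deposited log2 expression values of 45101 probe sets, made with GC-RMA, which corrects the background by probe sequence, quantile normalizes the arrays and summarises probes. The submitters' processing notes name GCRMA 2.10.0 and R 2.6.1. Since the arrays were normalized together to a common distribution, a shift of most genes would be hidden, and low signals are compressed. Probe sets with 1 gene symbol in the platform annotation (34945) were used, and those with several (932) or none (9160), and 64 control probe sets, were left out. For each gene the probe set of highest mean was taken, and genes with a mean above 4.84 were tested (8908 of 18193). Groups came from the sample labels. A linear model over the 4 groups was fitted with limma 3.58.1 in R 4.3.3 (4 residual and 3.78 prior degrees of freedom), and p-values were adjusted by Benjamini-Hochberg over all genes tested, for 7 comparisons including the interaction. Every adjusted p is from limma. A call needed an adjusted p under 0.05 and 1.5-fold. The fit was tested on simulated data with known changes. The array number limits the precision.

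All 10 listed genes are named, with up to 4 called genes of each gene list by size of change, any gene counted alone, and the 3 genes most correlated with each of the 3 members of largest range. Atf4, Foxo1 and Foxo3 were named besides, after their values were seen. The members and lists were chosen with earlier results of these data known. Alternatives covered the filter, probe sets, normalization, test, variance model, arrays in the fit, fold minimum, a replicate block and leaving out each array. The labels number the arrays within groups and name no pairing. Promoter windows came from RefSeq on GRCm38.p6.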

Additional observations from a re-analysis of the deposited data

How the results depend on the processing

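The member calls kept their direction and side of the threshold without the filter, after shifting each array to the same median, with trended and robust eBayes, with only the compared groups in the fit, and with the replicate block. After quantile normalization 1 member was called in LPS versus M, since Bcl2l11 had -0.57. The labels name no pairing, and deviations of same-numbered arrays correlated between -0.12 and 0.19 over pairs of groups. With 2 arrays a group, this cannot show whether arrays were paired. The replicate block left all 56 values of the members as they were in direction and call. With the mean of all probe sets of a gene, 2 members were called in M versus control and 2 in LPS+M versus LPS, and the genes called numbered 253, 371, 581 and 663 in M versus control, LPS+M versus LPS, LPS+M versus control and LPS versus M, against 405, 598, 876 and 1006. In that setting the sign turned for Bcl2l1 (0.085 in M versus control, 0.034 in LPS versus control, -0.10 in LPS+M versus M, -0.050 in LPS versus M and -0.13 for the interaction), Bak1 (-0.048 in M versus control), Bcl2l11 (0.14 in LPS versus control and 0.35 in LPS+M versus M) and Bcl2 (1.84e-05 for the interaction). None of these had been called. The Bcl2l1 mean over its 4 probe sets was 4.17, below the floor, and the gene was kept in this setting all the same. Of its probe sets below the floor, 1420887_a_at had 0.42 in M versus control and -0.50 in LPS+M versus M. Among the Bcl2l11 probe sets averaged, 1426334_a_at had 0.71 in LPS versus control and 1.01 in LPS+M versus M. Why these probe sets differ was not tested. With every probe set tested by itself, counted once per gene, members called were 2 in M versus control, 1 in LPS versus control, 2 in LPS+M versus LPS, 1 in LPS+M versus M and 2 in LPS+M versus control, with 736, 827, 1108, 564 and 1560 probe sets called, 1714 in LPS versus M and 2 for the interaction.

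By the methods' t-test at an unadjusted p, members called were 0 in LPS+M versus LPS and 0 in LPS+M versus control, with 254, 349, 288, 217, 503 and 640 genes called in M versus control, LPS versus control, LPS+M versus LPS, LPS+M versus M, LPS+M versus control and LPS versus M, and 48 for the interaction. After Benjamini-Hochberg it called 0 members and 0 genes in all 7. With no fold minimum, members called were 3, 3, 4, 1 and 4 in the first 5 of these comparisons, and genes 1934, 1935, 2560, 1268, 3085 and 3450 in the 6. With a 2-fold minimum, members called were 0 in M versus control, 0 in LPS+M versus LPS, 0 in LPS+M versus control and 1 in LPS versus M, and genes 85, 184, 136, 136, 268 and 329 in the 6 and 11 for the interaction. The interaction had 21 genes called, against 1 without the filter and 45 with trended and robust eBayes.

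Leaving out each array in turn gave 0 to 1 members in M versus control, 0 to 0 in LPS versus control, 1 to 3 in LPS+M versus LPS, 0 to 1 in LPS+M versus M, 1 to 2 in LPS+M versus control, 2 to 2 in LPS versus M and 0 to 0 for the interaction; the lone array left in a group is then assumed to vary like the others. Without the first LPS+M array, Bcl2l11 (0.69) and Bbc3 (0.69) were also called in LPS+M versus LPS. Genes called ran from 367 to 408, 514 to 630, 575 to 708, 330 to 428, 867 to 971 and 980 to 1118 in the 6, and from 2 to 40 for the interaction. The sign turned in some of these fits, with ranges of -0.21 to 0.070 for Bcl2l11 in LPS+M versus M, -0.0088 to 0.11 and -0.019 to 0.053 for Mcl1 in LPS+M versus LPS and in LPS versus M, -0.038 to 0.10 for Bak1 in M versus control, and, for Bcl2l1, -0.088 to 0.037 in LPS versus control, -0.10 to 0.023 in LPS+M versus LPS, -0.0014 to 0.034 in LPS+M versus M and -0.0071 to 0.12 in LPS versus M. For the interaction they were -0.17 to 0.11 (Bcl2), -0.11 to 0.0074 (Mcl1), -0.095 to 0.18 (Bcl2l11), -0.037 to 0.42 (Bbc3), -0.025 to 0.26 (Pmaip1), -0.021 to 0.10 (Bcl2l1) and -0.00054 to 0.14 (Bak1). None of these had been called. With 2 arrays a group, changes near 1.5-fold fell on either side of the threshold.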
